A study of Mus musculus with 8 samples.

Results

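The genes described here encode neurotransmitter receptor subunits and proteins of the synapse, measured in molar mesenchyme that did or did not carry a deletion of *Ezh2*. They were chosen by a rule on gene symbols, set with earlier results of these data known. It covers nicotinic acetylcholine receptors (*Chrn*), GABA-A receptors (*Gabr*), glycine receptors (*Glr*) and ionotropic and metabotropic glutamate receptors (*Gri* and *Grm*). It also covers neurexins and neuroligins, the Rims and Dlgap scaffold families, and synaptotagmins (*Syt*). The rule took 73 of the 20926 genes in the table. They comprise 9 nicotinic, 12 GABA-A and 2 glycine receptor subunits, 18 ionotropic and 3 metabotropic glutamate receptors, 3 neurexins, 3 neuroligins, 4 Rims, 4 Dlgap and 15 synaptotagmin genes. RNA came from molars of mice at postnatal day 3, after a reported removal of the epithelium. The 4 control libraries were from Ezh2fl/fl mice, and the 4 mutant libraries were from *Osr2-Cre;Ezh2fl/fl* mice (Osr2KI-Cre in the protocol). Both groups carried the floxed *Ezh2* alleles, and the control genotype as labelled has no Cre, so an effect of Cre itself cannot be told apart from that of the deletion. *Osr2-Cre* acts in dental mesenchyme and not in dental epithelium. The labels give C57BL/6 as the strain, whereas the study's methods describe a mixed background. The methods give 4 samples per group and also mention 3 pairs of sequenced samples, without saying which. Neither source states how many animals went into a library, so the p-values measure the spread between these libraries.

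Ezh2 is the methyltransferase of Polycomb repressive complex 2, which places the repressive mark H3K27me3, often at CpG-rich promoters of developmental genes that a tissue does not use. At a synapse, Rims proteins organise the active zone, synaptotagmins take part in vesicle fusion, neurexins and neuroligins join the opposing membranes, and Dlgap proteins link receptors to the postsynaptic scaffold. Many of these genes are also transcribed outside neurons. The question put to them was whether genes of neuronal function that were near zero in control mesenchyme rose in the mutant.

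A value is the authors' normalized expression of a gene in a library, set so that the upper quartile is the same in all libraries. An estimated read count is given beside low values. Estimated depth was 48.3 to 68.8 M reads, and 3 reads, taken as the least the depth can show, correspond to values of 0.0516 to 0.0758. *Ezh2* itself was 42.9 ± 8.03 (SD, n = 4) in control and 31.1 ± 5.92 in mutant libraries and was not called (log2 fold change -0.47, adjusted p = 0.239). This value covers the whole gene, so it does not read out the deleted exons alone. The enamel gene *Amelx* was between 7820 and 16300 in control 3, control 4 and mutant 3, and between 316 and 1380 in the other 5 libraries. Epithelium was reported as removed, but transcripts of the epithelial gene *Krt5* remained in every library, at 863 to 1990 in controls and 827 to 1130 in mutants. *Ddx3y*, a Y-linked gene, was below a value of 1 in mutants 2 and 3 only, and both *Ddx3y* and the female-specific *Xist* were high in controls 1, 3 and 4 and mutant 4, at 31.2 to 56.9 for *Ddx3y* and 401 to 767 for *Xist*. All 8 libraries enter every comparison, and the values of the called genes without the 3 libraries highest in *Amelx*, and without mutants 2 and 3, follow at the end.

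Of the 73 genes, 7 were higher in the mutant and 4 were lower at an adjusted p under 0.05 (limma over all genes). The genes called higher were *Dlgap2*, *Chrna4*, *Rims2*, *Syt6*, *Nrxn2*, *Grin2c* and *Syt12*, which is 9.59% of the 73, where 1.3% of all genes were called higher. Those called lower were *Gabrb2*, *Gabra3*, *Syt17* and *Nlgn1*, which is 5.48%, where 0.387% of all genes were called lower. The remaining 62 were not called. All 4 mutant libraries lay above all 4 control libraries in 11 of the 73, against 5.55% of all genes, and below them in 9, against 2.65%. For each of the 11 called genes the groups did not overlap, and the exact permutation p was 0.0286, the smallest that 4 libraries against 4 allow. These genes were called on the same libraries, so this adds no separate support, and this p is not adjusted for the number of genes. Changes went in both directions: 40 log2 fold changes were positive and 33 negative, and their median was 0.06, beside 0.02 over all genes. The sizes were larger, with a median absolute log2 fold change of 0.36 beside 0.13 over all genes. Fewer cells of a type and less RNA per cell cannot be told apart in these bulk libraries.

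**Figure D1:**
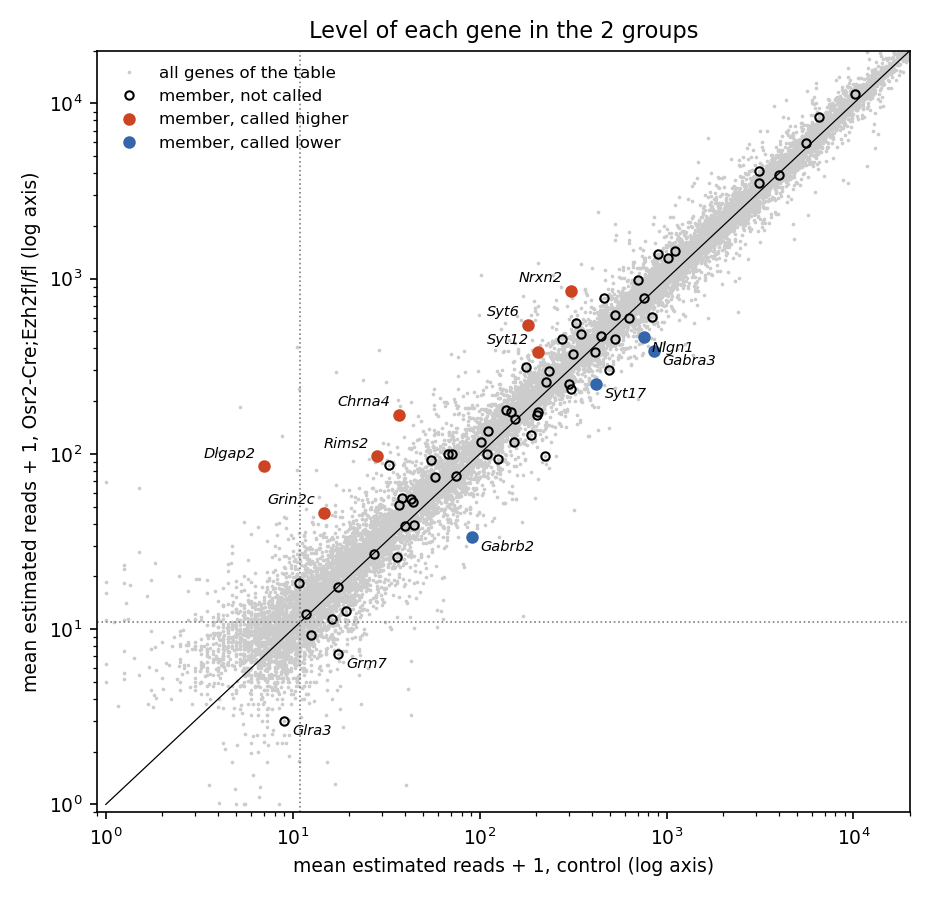
Mean estimated reads plus 1 in control (x axis, log scale) against mutant libraries (y axis, log scale), with every gene of the table in grey, the 73 genes as open circles and the called ones in red (higher) or blue (lower). The dotted lines stand at 10 reads, and *Dlgap2* is the called gene farthest to the left.

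Few of the calls were of genes near zero in control. A gene was taken as near zero in a group when it had fewer than 10 estimated reads in all 4 of its libraries. No member met this in control, against 759 genes of the table, and 2 met it in the mutant, *Glra3* and *Grm7*, against 384 genes. Every gene in the table reaches about 10 reads in at least 1 library, so a gene near zero throughout one group had to be higher somewhere in the other, and these counts show no direction of change. With a limit of 20 reads, 4 members were near zero in control (*Chrna3*, *Dlgap2*, *Gabra5* and *Glra3*) and 5 in the mutant (*Chrna3*, *Gabrp*, *Gabrr1*, *Glra3* and *Grm7*). Of the 4, *Dlgap2* was called higher, and of the 5 none was called lower. Of all genes, 2845 (13.6%) met the limit in control, 43 of them called higher, and 2364 (11.3%) met it in the mutant, 10 of them called lower.

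Sorted by mean reads over all 8 libraries, which does not favour either group, 18 of the genes had under 50 reads. In this lowest class 2 were called higher (*Dlgap2* and *Grin2c*), 0 were called lower, 8 of the 18 log2 fold changes were positive and their median was -0.08. Over all 5549 genes of the class, 0.847% were called higher and 0.234% lower, 3229 log2 fold changes were positive and their median was 0.06. Among the 37 members with 50 to 500 reads 4 were called higher and 2 lower, beside 2.36% and 0.517% of 4451 genes. Of the 18 with over 500 reads 1 was called higher and 2 lower, beside 1.09% and 0.412% of 10926 genes. Genes called higher thus made up 11.1%, 10.8% and 5.56% of the members in the low, middle and high class.

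Promoters of called genes are shown because genes moved in both directions and the complex that contains Ezh2 is known for CpG-rich promoters. Each line is 300 bases, from 250 before to 50 after the RefSeq transcription start (GRCm38.p6), in the direction of the gene, with CpG dinucleotides in capitals. The first pair rose and the second pair fell in the mutant.
*Chrna4* (chr2:181039128-181039427, minus strand, 33 CpG): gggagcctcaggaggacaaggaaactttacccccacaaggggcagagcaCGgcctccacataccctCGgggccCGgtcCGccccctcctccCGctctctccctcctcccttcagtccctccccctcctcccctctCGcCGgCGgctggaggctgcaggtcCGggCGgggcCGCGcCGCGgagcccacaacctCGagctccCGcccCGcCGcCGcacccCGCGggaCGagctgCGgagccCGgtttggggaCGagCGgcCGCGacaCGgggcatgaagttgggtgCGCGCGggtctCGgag
*Syt6* (chr3:103574995-103575294, plus strand, 16 CpG): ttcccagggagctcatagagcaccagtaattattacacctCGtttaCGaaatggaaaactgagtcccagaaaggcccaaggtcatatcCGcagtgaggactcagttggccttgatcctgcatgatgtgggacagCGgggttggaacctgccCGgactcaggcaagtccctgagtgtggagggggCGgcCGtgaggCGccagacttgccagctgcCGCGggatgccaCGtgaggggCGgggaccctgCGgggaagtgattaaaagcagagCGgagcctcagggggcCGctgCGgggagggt
*Gabrb2* (chr11:42420190-42420489, plus strand, 11 CpG): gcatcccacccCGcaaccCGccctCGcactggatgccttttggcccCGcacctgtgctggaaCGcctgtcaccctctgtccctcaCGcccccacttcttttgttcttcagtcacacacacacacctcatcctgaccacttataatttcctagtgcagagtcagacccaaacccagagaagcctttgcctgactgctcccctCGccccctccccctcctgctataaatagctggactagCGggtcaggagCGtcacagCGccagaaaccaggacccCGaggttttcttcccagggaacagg
*Gabra3* (chrX:72656870-72657169, minus strand, 0 CpG): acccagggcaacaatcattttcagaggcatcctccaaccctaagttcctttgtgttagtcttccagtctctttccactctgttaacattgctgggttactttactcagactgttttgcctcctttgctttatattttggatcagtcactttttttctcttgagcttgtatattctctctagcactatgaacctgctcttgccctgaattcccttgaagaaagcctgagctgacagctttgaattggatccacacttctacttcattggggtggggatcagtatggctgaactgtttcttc
A promoter entry was found for 50 of the 73 genes, with a median of 17 CpG, beside 7 over 27018 promoters of the same length. At least 15 CpG were present in 28 of the 50 (56.0%) and in 35.2% of all promoters. Called genes with an entry held 33 (*Chrna4*), 22 (*Grin2c*) and 16 (*Syt6*) CpG where they rose and 14 (*Nlgn1*), 11 (*Gabrb2*) and 0 (*Gabra3*) where they fell. Uncalled genes ranged from 2 to 50 with a median of 17, which lies between the values of *Syt6* and *Grin2c*. The left and right parts of the RE1 element, the site of the neuronal repressor REST, were searched on both strands as TTCAGCACC and GGACAGCGC. The first was in 0 of the 50 and in 0.37% of all promoters, and the second was in 1 of the 50 (*Gria2*) and in 0.433% of all. No entry was used for *Rims2*, *Nrxn2*, *Dlgap2*, *Syt12* or *Syt17*.

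Among nicotinic receptor subunits *Chrna4* alone was called. With *Chrnb2* it forms the most abundant nicotinic receptor of the brain. It lies on the minus strand of chromosome 2 (mm10, 181018380 to 181043546). *Chrna4* read 0.73, 0.523, 0.395 and 0.673 in controls 1 to 4 and 1.72, 3.5, 1.92 and 2.74 in mutants 1 to 4, which is 22 to 43 and 90 to 230 estimated reads. Every mutant library was above every control library, and mutant 2 was the highest. Its mean was 4.26 times higher in the mutant (log2 fold change 1.89, SE 0.26, adjusted p = 0.00751). *Chrnb2*, its usual partner, was 1.72 to 2.74 in mutants and 1.49 to 1.97 in controls (adjusted p = 0.772), and its exons overlap the more abundant *Adar* on the other strand.

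*Chrna6*, a subunit found in dopaminergic neurons, went the other way without passing the test. Its values were 3.37, 4.02, 2.29 and 4.04 in controls and 1.36, 1.96, 1.73 and 0.865 in mutants (log2 fold change -1.18, SE 0.27, adjusted p = 0.0629). These groups did not overlap either, and quantile normalization brought it past the threshold. *Chrnb1*, the muscle-type subunit with the highest mean of the family over all 8 libraries, was 2.97 to 3.5 in controls and 1.94 to 3.32 in mutants, and *Chrna1*, with which it forms the receptor of muscle, was 0.459 to 0.831 and 0.555 to 0.667. The ganglionic subunits *Chrna5*, *Chrna3* and *Chrnb4* lie side by side on chromosome 9, with gaps of 2.33 and 1.59 kb, and had log2 fold changes of 0.29, 0.01 and 0.38, none called. *Chrna7*, which forms a receptor by itself, was 1.2, 1.81, 2.96 and 3.56 in controls and 1.1, 1.3, 3.06 and 1.37 in mutants. Its 3 highest libraries were the 3 with the most *Amelx*, and the part of enamel tissue in this value was not tested.

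GABA-A receptors are chloride channels that inhibit mature neurons. Of the 12 GABA-A genes 2 (16.7%) were called lower, beside 0.387% of all genes, and 0 were called higher. Log2 fold changes were negative in 8 of the 12, and in 9374 of all 20926 genes. *Gabrb2*, a beta subunit, lies on chromosome 11 (42419757 to 42629028, plus strand). It read 1.67, 1.76, 1.27 and 0.948 in controls and 0.322, 0.546, 0.523 and 0.581 in mutants, or 61 to 130 and 16 to 44 reads. All mutant libraries were below all controls, and its mean was 2.86 times higher in control (log2 fold change -1.34, SE 0.24, adjusted p = 0.0232).

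*Gabra3*, the alpha subunit with the highest level per length of the called GABA-A genes, lies on the X chromosome (72432681 to 72656848, minus strand). It was 17.7, 14.2, 8.1 and 13.3 in controls and 4.11, 5.87, 5.91 and 6.87 in mutants. Control 3 was the lowest control and still lay above the highest mutant. The control mean was 2.34 times that of the mutant (log2 fold change -1.18, SE 0.23, adjusted p = 0.0383). *Gabre*, 158 kb away, had a log2 fold change of -0.28 (adjusted p = 0.762). Control 1 read 5.0 for it, and the 3 other controls, at 2.13 to 3.29, overlapped the mutants at 2.18 to 2.91.

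The other GABA-A genes had small or variable differences. *Gabrg3*, a gamma subunit, had the highest mean value of the family after *Gabra3* in controls, with 8.24 to 14.5 there and 8.51 to 19.9 in mutants, where mutants 2 and 4 were high. It lies 20.5 kb from *Gabra5* on chromosome 7, and these genes had log2 fold changes of 0.33 and 0.42, neither called. *Gabrr1*, a rho subunit known from retina, was 0.229 to 0.282 in controls and 0.152 to 0.19 in mutants, so that the groups did not overlap (log2 fold change -0.37, adjusted p = 0.389). *Gabrp*, a subunit of non-neuronal tissues, was 0.0869 to 0.367 and 0.0607 to 0.284. *Gabra4* and *Gabrb1* start on opposite strands of chromosome 5 and overlap at their exons, which matters because the strand setting of the counting is not stated.

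Neither glycine receptor gene was called. *Glra3*, an alpha subunit, had 6, 13, 9 and 4 estimated reads in controls and 1, 1, 3 and 3 in mutants, at values of 0.0765 to 0.188 and 0.0303 to 0.0566. The groups did not overlap, but the mutant libraries were all at or under the 3 reads that the depth can show, and the adjusted p was 0.149. *Glrb*, the beta subunit that anchors the receptor to gephyrin, was 3.09 to 4.24 in controls and 2.76 to 5.07 in mutants.

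Glutamate receptors gave 1 call among 21 genes, a rise in 5.56% of the 18 ionotropic genes, where 1.3% of all genes were called higher. *Grin2c*, an NMDA receptor subunit best known from cerebellar granule cells, lies on chromosome 11 (115249169 to 115267243, minus strand). It read 0.243, 0.316, 0.138 and 0.199 in controls and 0.607, 0.591, 0.679 and 0.852 in mutants, which is 7 to 23 and 31 to 65 reads. The mutant mean was 3.05 times higher (log2 fold change 1.29, SE 0.22, adjusted p = 0.0179), with no overlap between the groups. *Grin2d*, another NMDA subunit, was 8.76, 7.63, 6.22 and 6.49 in controls and 9.16, 13.3, 10.8 and 12.6 in mutants, with no overlap and an adjusted p of 0.0735 (log2 fold change 0.65, SE 0.15), and it was called without mutant 1 (0.75, adjusted p = 0.0373). *Gm45441*, which overlaps an exon of *Grin2d* on the other strand, was 0.553 to 0.575 in controls and 1.44 to 1.94 in mutants and was called (log2 fold change 1.39, adjusted p = 0.00293). Reads of these overlapping genes cannot be told apart without the strand. *Grin1*, the subunit that every NMDA receptor contains, was 1.36 to 1.89 in controls and 1.15 to 2.51 in mutants (log2 fold change 0.06, adjusted p = 0.965).

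*Gria2*, the AMPA receptor subunit that limits calcium entry, was 0.365, 0.577, 0.516 and 0.566 in controls and 0.531, 1.29, 1.33 and 1.79 in mutants. Mutant 1 lay among the controls and the other 3 mutants above them, and the gene was not called (log2 fold change 1.05, SE 0.32, adjusted p = 0.163). Without mutant 1 it passed the threshold. *Gria4*, also of the AMPA type, was 2.06 to 3.2 in controls and 2.98 to 6.64 in mutants, again with mutant 1 the lowest mutant (log2 fold change 0.67, adjusted p = 0.245). The kainate receptor genes *Grik1* and *Grik5* had the highest levels per kilobase of exon among receptor genes in controls, 9.36 and 9.48 per kb, and neither was called. *Grik1* was 94.6, 58.8, 38.7 and 59.6 in controls and 32.2, 80.3, 54.4 and 62.7 in mutants, a wide spread within both groups. *Grik3* was 2.0 to 4.56 in controls and 1.72 to 2.14 in mutants (log2 fold change -0.54, adjusted p = 0.371).

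All 3 metabotropic receptor genes, which act through G proteins, had negative log2 fold changes and none was called. *Grm7* had 8 to 25 estimated reads in controls and 3 to 8 in mutants. Its values were 0.156, 0.349, 0.275 and 0.291 against 0.0758, 0.106, 0.127 and 0.116, without overlap (log2 fold change -0.81, SE 0.22, adjusted p = 0.11). *Grm4* had the largest mean of the family and the widest scatter, with 2.97 to 7.4 in controls, 2.18 to 3.4 in mutants 1 to 3 and 12.7 in mutant 4. *Grm8* was 4.17 to 5.85 in controls and 2.34 to 5.5 in mutants.

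**Figure D2:**
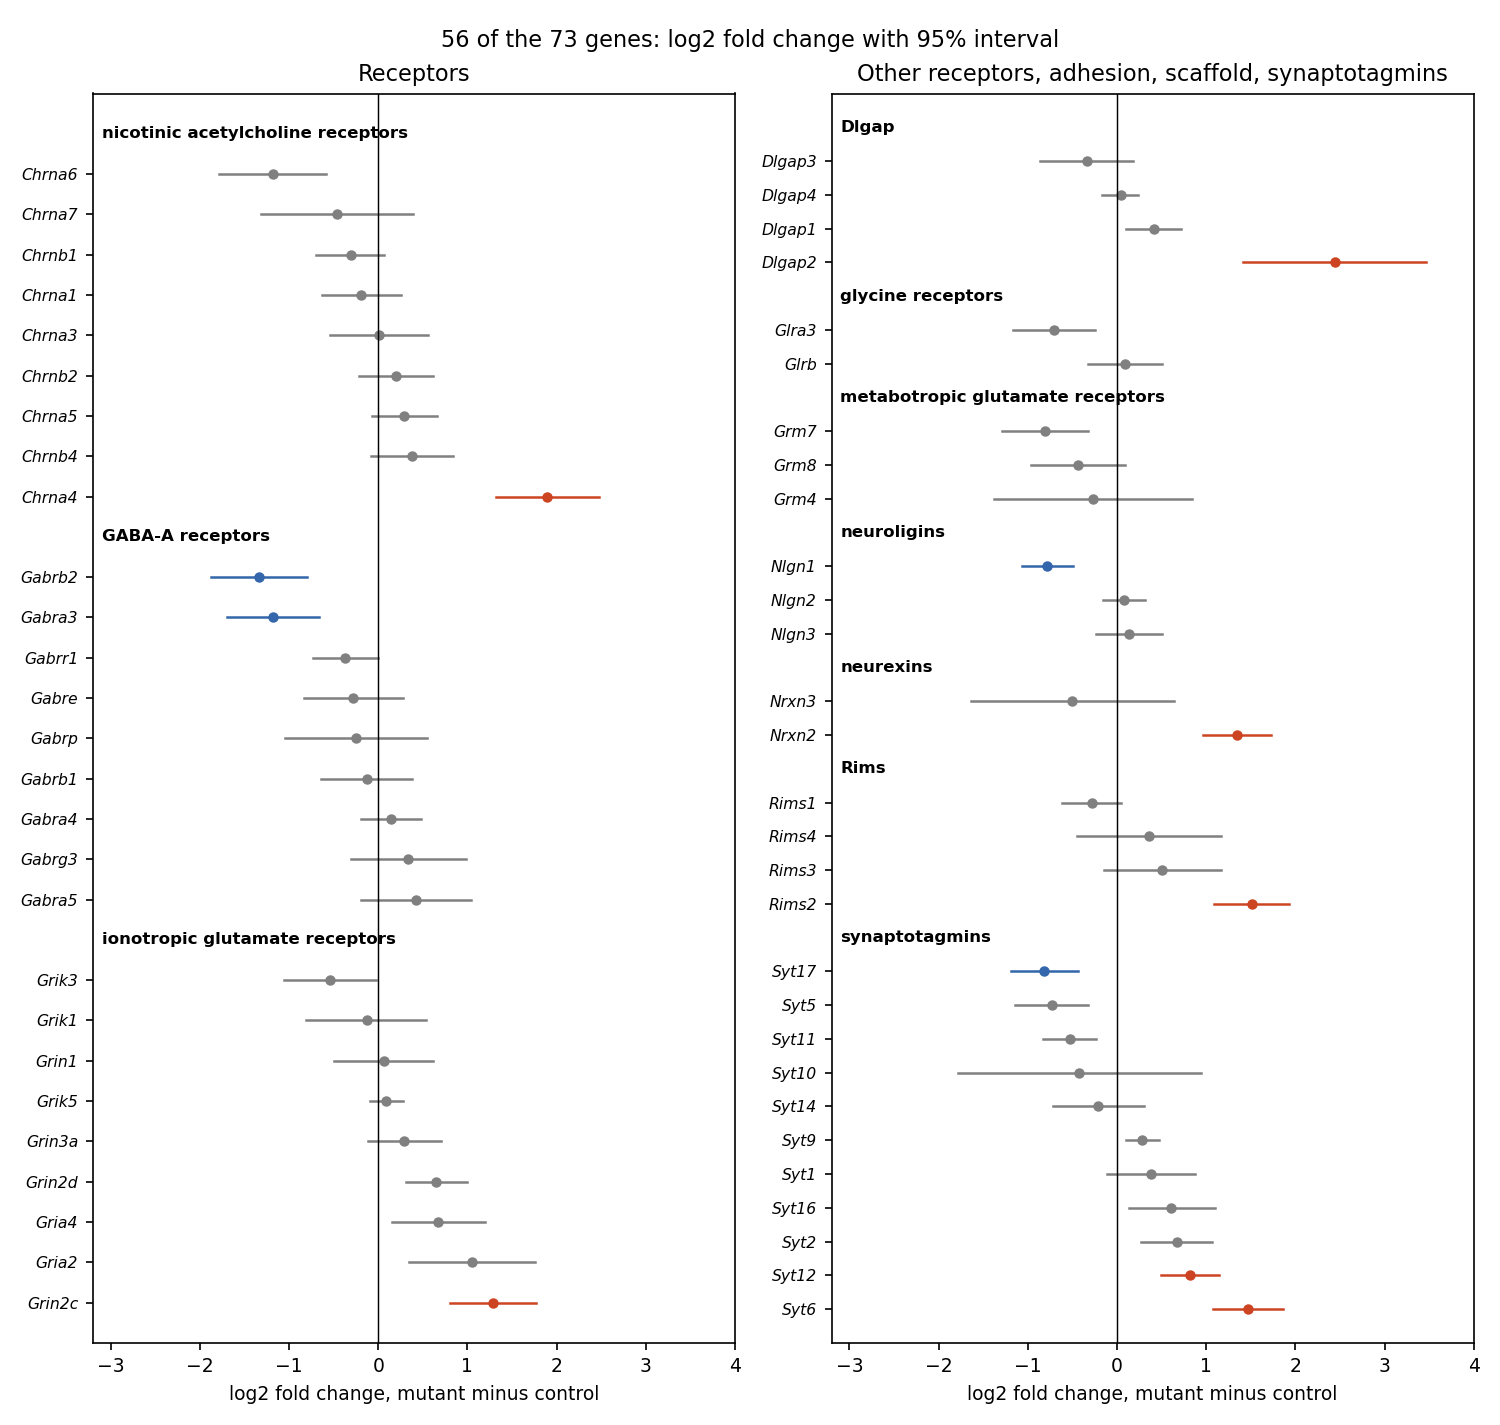
Log2 fold change of mutant minus control on the log2(value + 0.1) scale (x axis) for the 56 of the 73 genes that are named in the text (y axis), by family, with 95% intervals from limma that are not adjusted for the number of genes. Red marks genes called higher, blue genes called lower and grey genes not called, and *Dlgap2* lies farthest to the right while *Gabrb2* lies farthest to the left.

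Of the neurexins and neuroligins, *Nrxn2* was called higher and *Nlgn1* lower. *Nrxn2*, a presynaptic neurexin, lies on chromosome 19 (6418731 to 6544169, plus strand). It was 5.29, 4.77, 4.06 and 5.14 in controls and 9.56, 15.9, 10.9 and 14.2 in mutants, a mean 2.62 times higher (log2 fold change 1.35, SE 0.17, adjusted p = 0.00531). The lowest mutant exceeded the highest control. *Gm14964*, which overlaps *Nrxn2* exons on the other strand, was 0.228 to 0.442 in controls and 0.846 to 1.28 in mutants (log2 fold change 1.24, adjusted p = 0.021). *Nrxn3* was 0.243, 0.282, 0.499 and 1.24 in controls and 0.171, 0.167, 0.877 and 0.271 in mutants, highest in the libraries with the most *Amelx*.

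*Nlgn1*, a neuroligin known from excitatory synapses, lies on chromosome 3 (25426215 to 26332460, minus strand). It was 14, 11.1, 11.9 and 10.6 in controls and 5.62, 7.59, 7.04 and 7.25 in mutants. The control mean was 1.73 times that of the mutant (log2 fold change -0.78, SE 0.13, adjusted p = 0.0167), and the groups were well apart. *Nlgn2*, known from inhibitory synapses, was among the genes with the highest level per length, 27.5 per kb in controls and 29.3 per kb in mutants (*Syt9* had 25.7 and 31.3), at values of 153 to 165 and 140 to 194. *Nlgn3* was 6.64 to 9.85 and 7.61 to 11.1, and neither *Nlgn2* nor *Nlgn3* was called.

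Of the active zone scaffolds, *Rims2* was called higher. It lies on chromosome 15 (39198261 to 39684372, plus strand). Its values were 0.313, 0.429, 0.516 and 0.505 in controls and 1.18, 1.47, 1.47 and 1.6 in mutants, or 17 to 32 and 61 to 123 reads. All mutants were above the highest control, and the mean was 3.24 times higher (log2 fold change 1.51, SE 0.19, adjusted p = 0.00531). *Rims3*, the family member with the highest mean value, was 8.81 to 17.7 in controls and 13.4 to 33.7 in mutants. *Rims1* was 6.68 to 10.8 and 6.18 to 7.33, and *Rims4* was 0.226 to 0.791 and 0.529 to 1.33. None of these 3 was called, but *Rims3* was called with the level of enamel genes as a covariate (log2 fold change 0.51 without it, and 0.93 with it, adjusted p = 0.0123).

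*Dlgap2*, a scaffold of the postsynaptic density, had the largest fold change of the 73 genes. It lies on chromosome 8 (14095865 to 14847680, plus strand). It read 0.208, 0.0402, 0.103 and 0.107 in controls and 0.322, 1.46, 1.02 and 2.03 in mutants, which is 11, 2, 5 and 6 reads against 16, 95, 71 and 156. Mutant 1, at 16 reads, was close to control 1 at 11 reads, and the other 3 mutants were far above. The mean was 10.5 times higher in the mutant (log2 fold change 2.44, SE 0.46, adjusted p = 0.0294). Its call held without control 1 or mutant 1 and was lost without any of the other 6 libraries. *Dlgap1* was 4.4 to 6.38 in controls and 6.54 to 7.64 in mutants, without overlap but not called (log2 fold change 0.41, adjusted p = 0.235). *Dlgap4*, the member of this family with the highest level, was 80.7 to 98.3 and 78.9 to 100, and *Dlgap3* was 3.07 to 5.75 and 2.8 to 4.97.

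Synaptotagmins gave 3 calls among 15 genes. The share called higher was 13.3% and the share called lower 6.67%, beside 1.3% and 0.387% of all genes. *Syt6*, described in the acrosomal exocytosis of sperm, lies on chromosome 3 (103575231 to 103645569, plus strand). It was 2.37, 3.2, 3.12 and 2.65 in controls and 7.09, 6.9, 11 and 7.47 in mutants, a mean 2.86 times higher (log2 fold change 1.47, SE 0.17, adjusted p = 0.00409). Mutant 3 was the highest and no mutant came near the controls. *Syt12*, a form that does not bind calcium, lies on chromosome 19 (4445908 to 4477447, minus strand). It was 4.01, 3.0, 2.68 and 3.15 in controls and 5.13, 5.88, 6.19 and 5.54 in mutants, 1.77 times higher (log2 fold change 0.82, SE 0.14, adjusted p = 0.0226). *Syt17* on chromosome 7 (118380717 to 118448222, minus strand) went down. Its values were 6.6, 5.27, 7.53 and 7.28 in controls and 3.66, 3.08, 4.84 and 3.46 in mutants (log2 fold change -0.82, SE 0.17, adjusted p = 0.0452), and control 2 was only slightly above mutant 3.

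The calcium sensors of fast release were not called. *Syt1* was 0.911 to 1.21 in controls and 1.02 to 2.06 in mutants. *Syt2* was 4.16 to 6.48 in controls and 6.78 to 10.3 in mutants, without overlap (log2 fold change 0.67, SE 0.18, adjusted p = 0.11). *Syt9*, the most abundant synaptotagmin per length, was 91.2 to 110.0 and 115 to 138, also without overlap (log2 fold change 0.28, SE 0.08, adjusted p = 0.152). *Syt5* and *Syt11* had negative log2 fold changes of -0.73 and -0.53 (adjusted p = 0.094 and 0.0892). *Syt5* was called without mutant 1 (-0.90, adjusted p = 0.0206) and with *Xist* as a covariate (-0.70, adjusted p = 0.0465), and *Syt11* with the level of enamel genes as a covariate (-0.68, adjusted p = 0.014). *Syt16* had a log2 fold change of 0.61 (adjusted p = 0.251). *Syt10* was 1.86, 3.36 and 3.85 in control 3, control 4 and mutant 3 and 0.581 to 0.912 in the other libraries, so it followed *Amelx* across libraries and not the genotype.

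**Figure D3:**
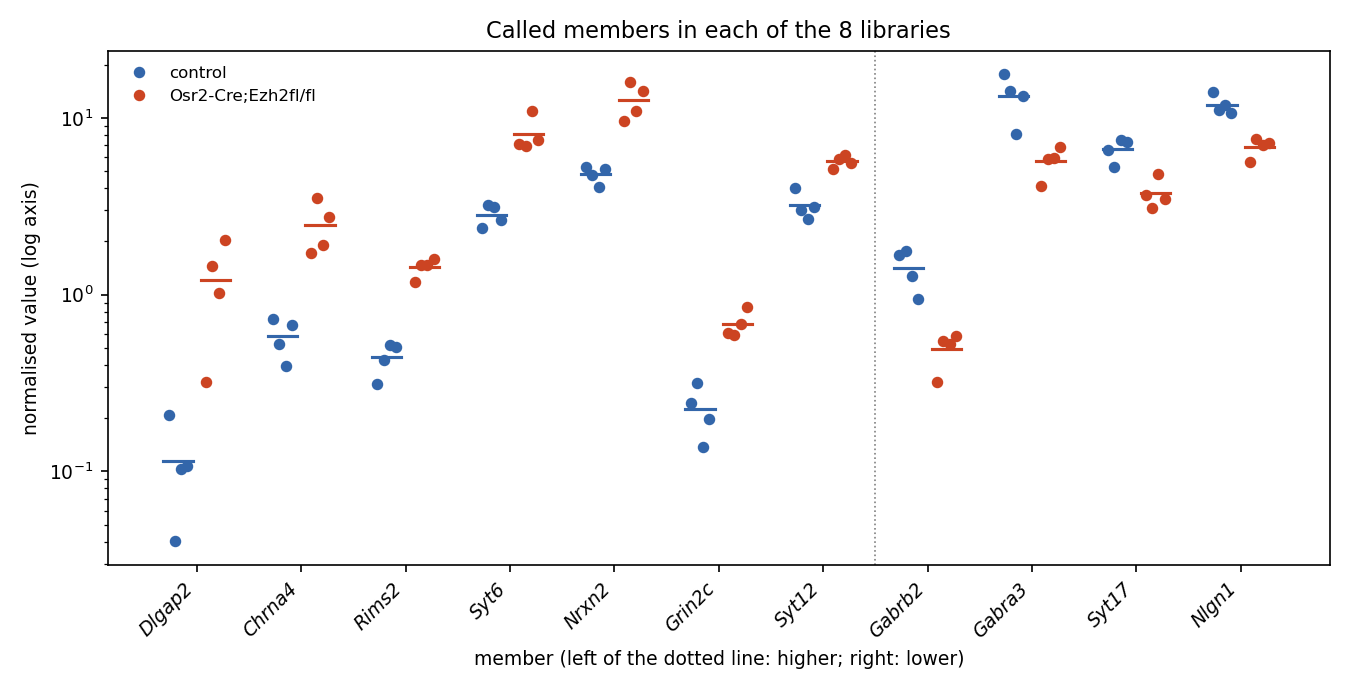
Normalized value (y axis, log scale) of the 11 called genes (x axis) in each of the 8 libraries, with controls in blue, mutants in red and a bar at each group mean. The groups do not overlap for any of the 11, and they come closest for *Syt17*, *Gabra3* and *Syt12*.

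Exons of 28 of the 73 genes overlap those of another annotated gene. Among the called genes these are *Nrxn2*, *Nlgn1*, *Syt6*, *Syt12* and *Grin2c*, in each case on the opposite strand. *Atg4a-ps*, which overlaps *Syt6*, was 0.844 to 1.53 in controls and 0.781 to 1.24 in mutants, below the *Syt6* values in every library. *A830092H15Rik*, at *Nlgn1*, was 0.173 to 0.255 and 0.0465 to 0.168, and *A930001C03Rik*, at *Syt12*, was 0.583 to 0.681 and 0.832 to 1.13. In every library these overlapping genes had lower values than the genes they overlap.

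In other genes of the synapse the calls higher were 3.7% of the vesicle and active zone list and 7.69% of transmitter handling, 1 gene each. They were 10% of the postsynaptic list, which is 3 genes, and 1.3% of all genes. Of the cell type lists below, endocrine had 20%, dental mesenchyme 9.09% and neuron 7.69%, each 1 gene, and the others 0%. The median log2 fold change was 0.24 for genes of the vesicle and active zone, 0.37 for transmitter handling, 0.17 for the postsynaptic list and 0.07 for the neuromuscular junction, beside 0.02 over all genes. Of the 27 vesicle and active zone genes 1 was called, *Syn2*, a synapsin that tethers vesicles, which rose (log2 fold change 1.08, adjusted p = 0.00409). *Snap25*, a core SNARE protein, had 1 to 17 reads in controls and 23 to 26 in mutants without being called (adjusted p = 0.0907). *Sv2b*, a vesicle glycoprotein, and *Pclo*, an active zone scaffold, had log2 fold changes of -0.87 and -0.92 and were not called either (adjusted p = 0.0542 and 0.145). At an unadjusted p under 0.05, 6 of the 27 (22.2%) were higher and 3 (11.1%) lower, beside 8.02% and 4.53% of all genes. Of 13 genes for transmitter synthesis and transport, *Slc17a7*, a vesicular glutamate transporter, was called higher, from 7 to 20 reads up to 38 to 59 (log2 fold change 1.41, adjusted p = 0.01). Among 30 genes of the postsynaptic scaffold and receptor auxiliary subunits 3 were called higher and 0 lower, and all 3 are AMPA or GABA-A receptor auxiliary proteins: *Cacng5* (log2 fold change 1.57, adjusted p = 0.00934), *Cacng8* (1.45, adjusted p = 0.0473) and *Shisa7* (1.71, adjusted p = 0.011). *Shisa7* was 0.331 ± 0.0704 (SD, n = 4) in control and 1.36 ± 0.525 in mutant libraries. The scaffold genes *Dlg4*, *Shank3*, *Homer1* and *Gphn* had log2 fold changes of 0.06, 0.25, -0.02 and 0.07. Of 6 genes of the neuromuscular junction 0 were called higher or lower, and 2 were higher at an unadjusted p under 0.05, as were 8.02% of all genes.

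Marker genes of the cell types that could carry these transcripts were measured in the same libraries. *Uchl1* was the called gene among 13 neuron genes (log2 fold change 0.86, adjusted p = 0.00897), and the summed value of the list was 158 to 205 in controls and 159 to 178 in mutants, with a median log2 fold change of 0.00. The neurofilament genes *Nefl* and *Nefm* had at most 18 reads in any library, *Nefh* at most 17 and *Prph* at most 14. Other neuron genes had many more, such as *Tubb3* with 5056 to 9113 reads in controls and 5625 to 7617 in mutants. *Map2* had 1999 to 3156 and 1918 to 2819. Of 12 Schwann cell genes *Erbb3* was called lower (log2 fold change -0.45, adjusted p = 0.0408) and 0 were called higher, with sums of 240 to 333 and 308 to 361. Most of these sums was *Pmp22*, at 169 to 274 in controls and 252 to 294 in mutants, and 7 of the 12 log2 fold changes were negative. Of 5 endocrine genes *Scg3* was called higher (log2 fold change 1.04, adjusted p = 0.0316), with sums of 2.15 to 4.17 and 4.11 to 4.85. The 16 skeletal muscle, 7 ameloblast, 9 epithelial, 4 odontoblast, 6 endothelial and 5 immune genes gave no calls. At an unadjusted p under 0.05, 0 of them were higher except 2 immune genes, and 2 ameloblast, 3 epithelial, 2 odontoblast and 3 endothelial genes were lower, beside 8.02% of all genes higher and 4.53% lower. Every one of the 7 ameloblast, 9 epithelial, 4 odontoblast and 6 endothelial genes had a negative log2 fold change, beside 9374 of all 20926 genes. In that order the medians of these lists were -1.29, -0.42, -0.68 and -0.17. The medians were -0.57 for the muscle, 0.12 for the immune and -0.12 for the Schwann cell genes. Summed values of muscle genes were 17.5 to 74.8 in controls and 12.9 to 23.4 in mutants, those of ameloblast genes 811 to 28700 and 738 to 11500, those of epithelial genes 2450 to 5320 and 2270 to 3280 and those of odontoblast genes 1950 to 3390 and 1080 to 2740. Endothelial sums were 328 to 369 and 293 to 319 and immune sums 96.6 to 155 and 117 to 143. Of 11 dental mesenchyme genes *Lhx8* was called higher (log2 fold change 1.24, adjusted p = 0.00465), with sums of 10900 to 13200 and 9080 to 12800. The part of these cell types in the called genes was not tested.

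The calls differed in how far they rested on single libraries. *Chrna4*, *Rims2*, *Syt6* and *Nrxn2* passed the threshold with each of the 8 libraries left out in turn. *Nlgn1* passed in 6 of the 8 cases, *Grin2c* in 5, *Dlgap2*, *Gabrb2* and *Syt12* in 2, and *Gabra3* and *Syt17* in 1. In the 5 libraries without control 3, control 4 and mutant 3, none of the 11 passed in this limma fit, in which 18 genes of the whole table passed. The direction of the 11 could not reverse there, because their groups do not overlap in the full set. At an unadjusted p under 0.05, 11 of the 11 passed there, but they were chosen on these same libraries, so this is no separate support. *Chrna4* had a log2 fold change of 1.88, *Rims2* 1.69, *Nrxn2* 1.35, *Syt6* 1.34, *Dlgap2* 2.43, *Grin2c* 1.04 and *Syt12* 0.65, and *Gabrb2* had -1.67, *Gabra3* -1.51, *Nlgn1* -0.88 and *Syt17* -0.78. In the libraries with *Ddx3y* transcripts, 4 controls and mutants 1 and 4, only *Syt6* passed. All 11 had an unadjusted p under 0.05, which is again no separate support, and their direction could not reverse there either. The log2 fold change there was 1.77 for *Chrna4*, 1.26 for *Nrxn2*, 1.46 for *Rims2*, 1.34 for *Syt6*, 2.20 for *Dlgap2*, 1.37 for *Grin2c* and 0.73 for *Syt12*, and it was -1.46 for *Gabrb2*, -1.25 for *Gabra3* and -0.88 for both *Nlgn1* and *Syt17*. Among uncalled genes, the log2 fold change of *Gria4* went from 0.67 to 0.36 and *Rims3* from 0.51 to 0.28 in the libraries with *Ddx3y*. Without the libraries highest in *Amelx*, *Dlgap1* went from 0.41 to 0.16, *Grik3* from -0.54 to -0.23 and *Gabre* from -0.28 to -0.77. *Gabrg3* went from 0.33 to 0.12 and *Gabra5* from 0.42 to 0.11 there, and not all uncalled genes that moved are listed.

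**Figure D4:**
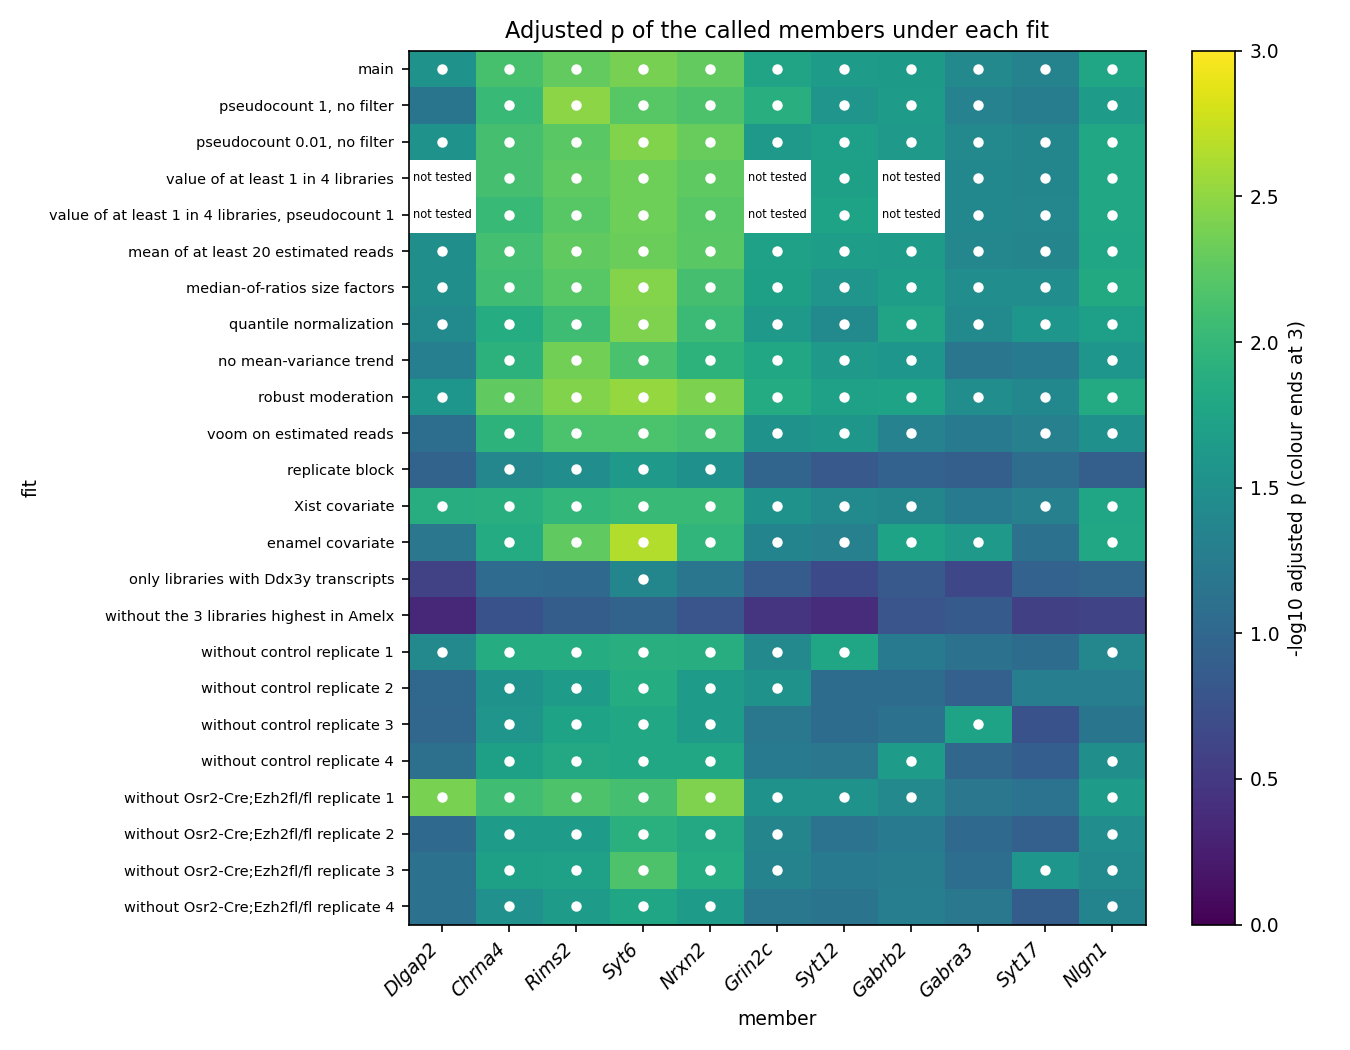
Adjusted p of the 11 called genes (x axis) under each processing alternative (y axis), as -log10 in colour, with a dot where the gene passed 0.05 and "not tested" where a filter removed it. *Chrna4*, *Rims2*, *Syt6* and *Nrxn2* have dots in every line except those of the fits to 5 or 6 libraries chosen by *Amelx* or *Ddx3y*, where only *Syt6* keeps a dot, in the *Ddx3y* fit. *Chrna4* and *Rims2* pass the filter on values of at least 1 only through the 4 mutant libraries, so their dots in those lines are no support.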

How the data were processed

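Molar mesenchyme of 4 control (Ezh2fl/fl) and 4 *Osr2-Cre;Ezh2fl/fl* libraries was measured by single-end RNA-seq of 75 cycles. The methods of the study name TopHat, the mm10 genome and RPKM, whereas the submitters' processing notes name CASAVA 1.8.2, STAR 2.5.3a and Partek. The deposited values were treated as a normalized signal, made by the authors, because they carry no factor of gene length and share their 75th percentile. The smallest value of a library was taken as 1 read added to every gene, and estimated reads are the value divided by it, minus 1. Of the low values (under 20 times the smallest), 62.5% lay within 0.02 reads of a whole number, so no count model was the main test. Besides these 8 columns it held 0 others with values of single samples.

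Values were tested as log2(value + 0.1) with limma 3.58.1 in R 4.3.3 (lmFit, eBayes with a mean-variance trend) over all 20926 genes without a filter, with Benjamini-Hochberg adjustment. Fold changes on this scale understate changes of low genes. Single genes were also tested by exact two-sided permutation over 70 arrangements. A filter on values of at least 1 in 4 libraries would have kept 52 of the 73 genes. On simulated data for this comparison, 98.5% of 200 genes changed 4-fold were recovered, 1.99% of calls were false and 0 calls were made with no change. The simulated reads had the same spread for every gene, and libraries differed only in depth and in the changed genes. The real libraries also differ in enamel and sex-linked transcripts, so these rates need not hold for them or for smaller changes. Alternatives were other pseudocounts, filters, scalings, models, covariates and left-out libraries. Coordinates and exons are from GENCODE M21, which held all 73 symbols, and promoters are from RefSeq (GRCm38.p6).

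The genes and all lists were chosen with earlier results of these data known. Named genes were those called, those with an unadjusted p under 0.05, the 10 highest and 5 lowest log2 fold changes, genes near zero in a group, the highest mean of each family, *Ezh2*, and called genes of the lists (presynaptic, transmitter handling, postsynaptic, neuromuscular junction, neuron, Schwann, muscle, ameloblast, epithelium, odontoblast, dental mesenchyme, endothelium, immune and endocrine). Further genes were added as partners or neighbours after their values were seen. Single values of some of the 73 genes are not reported here.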

Additional observations from a re-analysis of the deposited data

Results flagged for a closer look

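Of 86 groups of 4 libraries examined for a library far from the others, 2 were found where chance gives about 4.3. *Syt6* in mutant 3 was 11, and the other mutants were 6.9 to 7.47. *Ezh2* in control 1 was 55.0, and the other controls were 38.3 to 39.6.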

How the results depend on the processing

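With the replicate number as a block, 4 of the 73 genes were called higher (*Chrna4*, *Rims2*, *Syt6* and *Nrxn2*) and 0 lower, with 82 and 11 of all genes (limma; 14 and 11 of the 73 at an unadjusted p under 0.05). The labels do not say whether libraries of equal number share a litter or day. Deviations of same-numbered libraries correlated at -0.282, -0.0236, 0.114 and -0.302, which cannot settle this. Libraries with *Ddx3y* transcripts alone gave 1 higher and 0 lower among the 73 and 39 and 6 of all genes (unadjusted 10 and 10 of the 73). Without the 3 libraries highest in *Amelx*, an alternative chosen after seeing the data, there were 0 and 0, and 15 and 3 of all genes (unadjusted 10 and 11 of the 73). Both of these fits have fewer libraries. Without the mean-variance trend 2 of the 73 were lower. Leaving out each library in turn gave 4 to 9 higher and 0 to 3 lower among the 73 and 129 to 382 and 17 to 106 of all genes. With limits of 3 and 20 reads, 0 and 4 of the 73 were near zero in control and 1 and 5 in the mutant. Under 1 or more of the 23 alternatives 25 of the 73 log2 fold changes reversed, 0 of them of called genes. Called genes could not reverse in fits that leave out libraries, because their groups do not overlap. An enamel covariate reversed 12, among them *Syt10* (0.45), *Nrxn3* (0.18), *Chrna7* (0.08) and *Syt14* (0.08). Of the genes chosen by the naming rule, those that reversed were *Dlgap4* -0.04, *Nlgn2* -0.11 and *Grm4* 0.24 (libraries with *Ddx3y*), *Glrb* -0.05 (without those highest in *Amelx*), *Dlgap4* and *Grm4* (without mutant 3), *Glrb* (without mutant 4) and *Grik1* 0.09 and 0.12 (without control 1 and mutant 1). Leaving out each library gave -0.02 to 0.1 for *Dlgap4*, -0.06 to 0.23 for *Glrb*, -0.34 to 0.12 for *Grik1* and -0.82 to 0.00 for *Grm4*. The cause was not tested. The 11 calls were kept with a pseudocount of 0.01, median-of-ratios scaling, quantile normalization and robust moderation. They were also kept with a mean of at least 20 reads, which *Dlgap2* and *Grin2c* reach only through the mutant libraries. *Dlgap2* was lost with a pseudocount of 1, no trend, voom and an enamel covariate, *Syt17* with a pseudocount of 1, no trend and an enamel covariate, and *Gabra3* with no trend, voom and an *Xist* covariate. Calls were gained by *Chrna6* (quantile), *Syt5* (*Xist*), *Rims3* and *Syt11* (enamel). A filter on values of 1 removed *Dlgap2*, *Gabrb2* and *Grin2c*. Counting error limits genes under about 10 reads.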

Other observations

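Several genes had their 3 highest values in the 3 libraries with the most *Amelx* (control 3, control 4 and mutant 3), whatever the genotype. This held for 7 of the 73 genes (9.59%), among them *Chrna7*, *Nrxn3*, *Syt10* and *Syt14*, and for 4.64% of all genes. The values in these 3 libraries and in the other 5 were 2.96 to 3.56 and 1.1 to 1.81 for *Chrna7*. For *Syt10* they were 1.86 to 3.85 and 0.581 to 0.912, and for *Nrxn3* 0.499 to 1.24 and 0.167 to 0.282. *Syt14* was 7.16 to 8.56 and 4.05 to 6.26. Of the 13 neuron genes, only *Rbfox3* followed the same order, with 1.56 to 2.28 and 0.657 to 1.42. The others overlapped, such as *Stmn2* (5.71 to 10.2 and 3.0 to 6.71) and *Tubb3* (100 to 139 and 87.9 to 107). *Map2* was 30.6 to 37.8 and 34.1 to 48.0, and *Elavl4* was 1.44 to 1.95 and 1.3 to 2.38. One gene, *Grin3a*, an NMDA receptor subunit, had its 3 lowest values there, 13.9 to 16.4 beside 18.1 to 25.9, as did 3.02% of all genes. These libraries were picked out by a measured value and not by a label, and no test was made between them.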
